A study of Drosophila melanogaster with 4 samples.

Results

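The bifid window is the stretch of the X chromosome from 4000000 to 4800000 (X:4000000-4800000, 1-based, FlyBase release 5), named for 1 gene, bifid (bi, also called optomotor-blind). It was chosen because its centre holds the longest block of X without a called region of H3K27me2, histone H3 dimethylated at lysine 27. That block was picked from the same lists of regions that are described here. Its length and its lack of calls are therefore descriptions, with no test. The window held 82 of the 2543 regions that the series' list places on X, 27 of 1188 in replicate 1 and 14 of 770 in replicate 2.

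The lists come from ChIP-seq, immunoprecipitation of chromatin followed by sequencing, on nuclei from heads of the wild-type laboratory strain Oregon-R (Oregon-R-modENCODE), at the stage labelled mixed adult. The series has 4 samples, namely 2 ChIP replicates made with the antibody Ab24684 and 2 inputs (chromatin without the antibody), each input assigned by its label to 1 ChIP replicate. There was 1 list for each ChIP replicate and 1 for the series, with no other genotype or treatment to compare. Heads hold many cell types, so a region reports an average over them. Whether the replicates were separate batches of flies is not in the labels, and their spread may be technical.

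bi encodes a transcription factor of the T-box family. It acts downstream of the signalling proteins Decapentaplegic and Wingless in the wing, and the optic lobes, the visual centres of the fly brain, need it for their development. Its old name comes from flies that fail to follow moving patterns. H3K27me2 is placed by Polycomb repressive complex 2, whose catalytic subunit in flies is E(z). It is known as the most widespread of the methylation states of this lysine and as a mark of sequence that is not transcribed. H3K27me3, placed by the same complex, marks genes silenced by Polycomb, and active genes carry little of either.

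The files give no gene positions, and the gene table at hand is built on release 6, whose coordinates differ. The place of bi inside the window was therefore not determined, nor was the overlap of any gene with the block. By order of start in that table, the 3 entries before bi are asRNA:CR43614, lncRNA:CR46499 and lncRNA:CR32773, a long non-coding RNA gene that extends past both ends of bi. The 3 after it are CG3556, rb and CHOp24. rb, ruby, encodes a subunit of the adaptor complex AP-3 that eye pigment granules need.

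The series' list had no region from 4264071 to 4523391 on X, a block of 259321 bp. This was the longest of 2539 gaps between regions on X, and the next was 176154 bp long. The median gap of X was 1521 bp in that list, and 18 gaps exceeded 100 kb. The block took up 1.16% of X and 1.65% of all its uncovered bases.

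Both replicates were empty over the whole block as well, with 0 regions and 0% of its bases covered in each. On X the series' list contained 93.3% of the bases called in replicate 1 and 97.3% of those in replicate 2, so this follows largely from the choice of the block. In replicate 1 the gap ran from 4262337 to 4547033 and measured 284697 bp. In replicate 2 it ran from 4188421 to 4603313 and measured 414893 bp. The stretch empty in replicate 1 was thus close to the series' block at its distal edge, the one nearer the telomere, and the stretch in replicate 2 reached well past it on both sides.

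The rank of the gap differed between lists. It was the 4th longest of 1187 gaps on X in replicate 1 and the 2nd longest of 769 in replicate 2. Gaps were longer throughout in the replicates, with medians of 5828 bp and 8497 bp on X, and 31 and 55 gaps exceeded 100 kb. With the calls of both replicates laid together, the gap was 284697 bp long and again ranked 4th. The place of longest was also lost in the series' list once regions shorter than the shortest region of a replicate were left out. The block kept its edges there but ranked 5th, and the longest gap was 306843 bp.

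**Figure D1:**
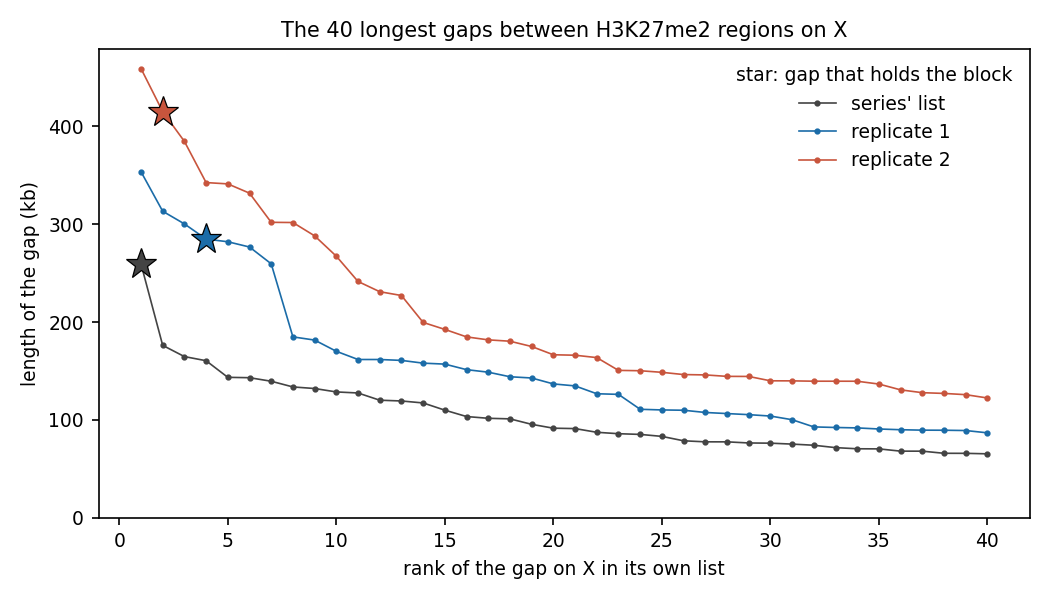
Length in kb of the 40 longest gaps between enriched regions on X, ranked within each of the 3 lists, with a star on the gap that holds the block. The star stands at rank 1 in the series' list, rank 4 in replicate 1 and rank 2 in replicate 2, and the replicates' gaps are longer at every rank drawn.

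Other long gaps of X were also empty in all 3 lists. In the series' list the gaps ranked 2nd to 4th ran from 20455959 to 20632112 (176154 bp), from 15735492 to 15900181 (164690 bp) and from 15994546 to 16155021 (160476 bp), and each was covered to 0% by both replicates. Within 100 kb on either side, the block had 9.02% cover in replicate 1 and 2.15% in replicate 2. For the 2nd gap the values were 7.62% and 11.2%, for the 3rd 4.84% and 4.62%, and for the 4th 1.72% and 1.67%.

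The longest gaps of the replicates lay elsewhere and held some calls of the series' list. The longest gap of replicate 1 ran from 6944411 to 7297933 (353523 bp), and the series' list covered 6.36% of it. The longest gap of replicate 2 ran from 8424319 to 8883227 (458909 bp), and replicate 1 covered 2.43% of it and the series' list 6.78%. The gap of replicate 1 around the block was covered to 1.41% by the series' list. Of the 5 longest gaps of replicate 1, the one from 15994534 to 16294745 had less, 0.844%. The block was thus 1 of several long uncovered stretches of X, and its first place held in the series' list alone.

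**Figure D2:**
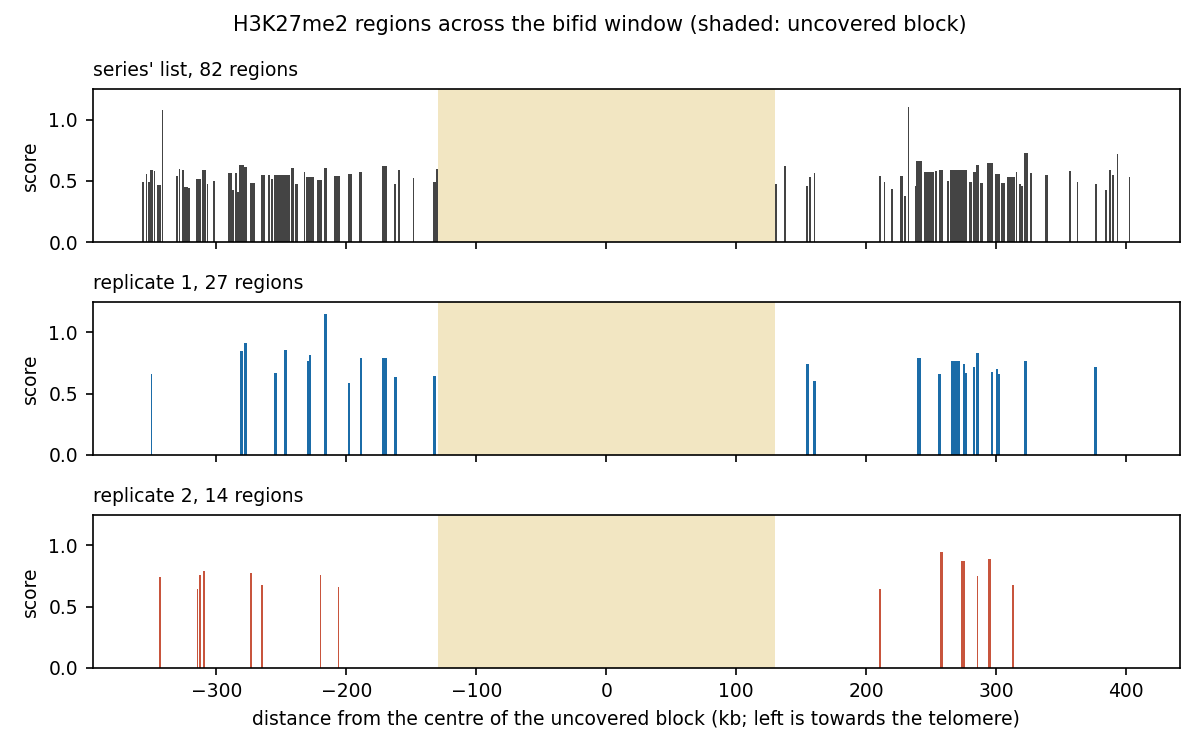
Enriched regions of the 3 lists across the window, drawn at their own width against distance in kb from the centre of the block (shaded), with height giving the authors' score. The shaded block is empty in all 3 lists, and the uncovered stretch is widest in replicate 2.

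The edges of the block were set by short regions. Scores are the authors' own, 1 for each region, with no stated scale. From their values, every score in each list was the log2 of a ratio of whole numbers minus 1 constant for the list. Its upper term is taken as ChIP reads and its lower term as input reads, both in lowest terms. This reading is not stated by the labels or headers. The distal edge in the series' list was the region from 4262687 to 4264070 (1384 bp), with a score of 0.60 and terms of 229 and 133. It lay at percentile 77.1 of the scores on X. The proximal edge, the one nearer the centromere, was the region from 4523392 to 4525006 (1615 bp), with a score of 0.48 and terms of 239 and 151. It lay at percentile 20.4. Neither edge region held a base called in a replicate.

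In the replicates other regions ended the gap. In replicate 1 these were a region of 1658 bp at 4260679 to 4262336, with a score of 0.65, and a region of 2709 bp at 4547034 to 4549742, with a score of 0.75. They stood 1734 bp and 23642 bp outside the block. In replicate 2 they were a region of 1365 bp at 4187056 to 4188420, with a score of 0.66, and a region of 1517 bp at 4603314 to 4604830, with a score of 0.64. These stood 75650 bp and 79922 bp outside the block. The regions next to the gap were at percentiles 13.5 and 38.1 of X scores in replicate 1 and at 13.1 and 11.0 in replicate 2. If the terms are taken as the reads, the counting errors were 0.39 and 0.22 in replicate 1 and 0.32 and 0.21 in replicate 2. Within each replicate these exceed the difference between its scores, so on that reading the sides cannot be ranked. The errors are upper limits, since the reads may be whole multiples of the terms.

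The flanks, the parts of the window outside the block, had 10.4% of their bases covered in replicate 1 and 4.41% in replicate 2 (mean 7.42% ± 4.26, SD, n = 2). The rest of X was covered to 11.9% and 6.58%, a mean of 9.24% ± 3.76 (n = 2). The flanks were lower than the rest of X in both replicates, by -1.47 and -2.18 percentage points, a mean difference of -1.82 ± 0.50 (n = 2). The series' list gave the opposite order, with 37.4% in the flanks and 29.9% on the rest of X, a difference of 7.48 percentage points. The direction of the difference therefore depends on which list is read, and no test between groups of samples is possible with 1 group of 2 replicates. The flanks leave out the longest gap of the series' list by choice, while the rest of X keeps its own gaps. In the replicates that gap ran on into the flanks. It reached 1734 bp and 23642 bp past the block in replicate 1, and 75650 bp and 79922 bp in replicate 2. The lower cover of the flanks in the replicates thus includes empty sequence continuous with the block, and is a description only. With the block included, the window was lower than the rest of X in all 3 lists. The differences were -4.64 percentage points in the series' list, -4.85 in replicate 1 and -3.61 in replicate 2.

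Counted in 10-kb bins that touch a region, the flanks were near the level of X in the replicates and above it in the series' list. The flanks had 22 of 54 bins touched in replicate 1, where 41.9% of all bins of X were touched, and 14 of 54 in replicate 2, where 28.1% were. In the series' list 45 of 54 were touched, against 64.7% of all bins of X. The flank shares were 40.7%, 25.9% and 83.3%. Since the flanks leave out the block by choice, the higher share in the series' list is a description only. With the block included, that list touched 46 of 80 bins of the window (57.5%), against 65.0% on the rest of X.

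The distal flank, from 4000000 to 4264070, held 13 regions in replicate 1, 8 in replicate 2 and 42 in the series' list. They covered 9.76%, 4.69% and 38.8% of it. The proximal flank, from 4523392 to 4800000, held 14, 6 and 40 regions, which covered 11.1%, 4.14% and 36.0%. In each list the flanks differed by less than 3 percentage points, so neither side of the block was called much more than the other.

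Cover was not even along the flanks. In the series' list the 50 kb next to the block were covered to 21.8% on the distal side and 14.6% on the proximal side. Between 100 and 150 kb from the edge the values were 63.0% and 69.6%. On the proximal side of the window, all 3 lists placed most of their cover between 100 and 200 kb from the edge. There replicate 1 reached 29.4% and 19.6% in the 2 steps, and replicate 2 reached 9.14% and 10.7%. On the distal side the replicates differed. Replicate 1 had its highest step, 16.8%, at 100 to 150 kb and still 13.0% in the 50 kb next to the block. Replicate 2 had its highest, 9.33%, at 150 to 200 kb and 0% in the 50 kb next to the block. An empty step is common on X, since 37.7% of its 448 steps of 50 kb had no cover in replicate 2, 22.3% in replicate 1 and 10.0% in the series' list.

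Another sparse stretch took in the outer end of the distal flank and the sequence beyond it. Between 250 and 450 kb from the distal edge (3814071 to 4014070) the series' list had 4 regions over 2.99% of the sequence. Replicate 1 had 1 region over 0.718%, and replicate 2 had 1 over 0.674%. In each list all regions of the distal flank thus stood between the block and a second stretch with few calls. That second stretch was picked from these steps, and no share of like stretches of X is given here. Past that stretch, the step at 450 to 500 kb was covered to 64.6% in the series' list, 40.2% in replicate 1 and 8.61% in replicate 2.

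**Figure D3:**
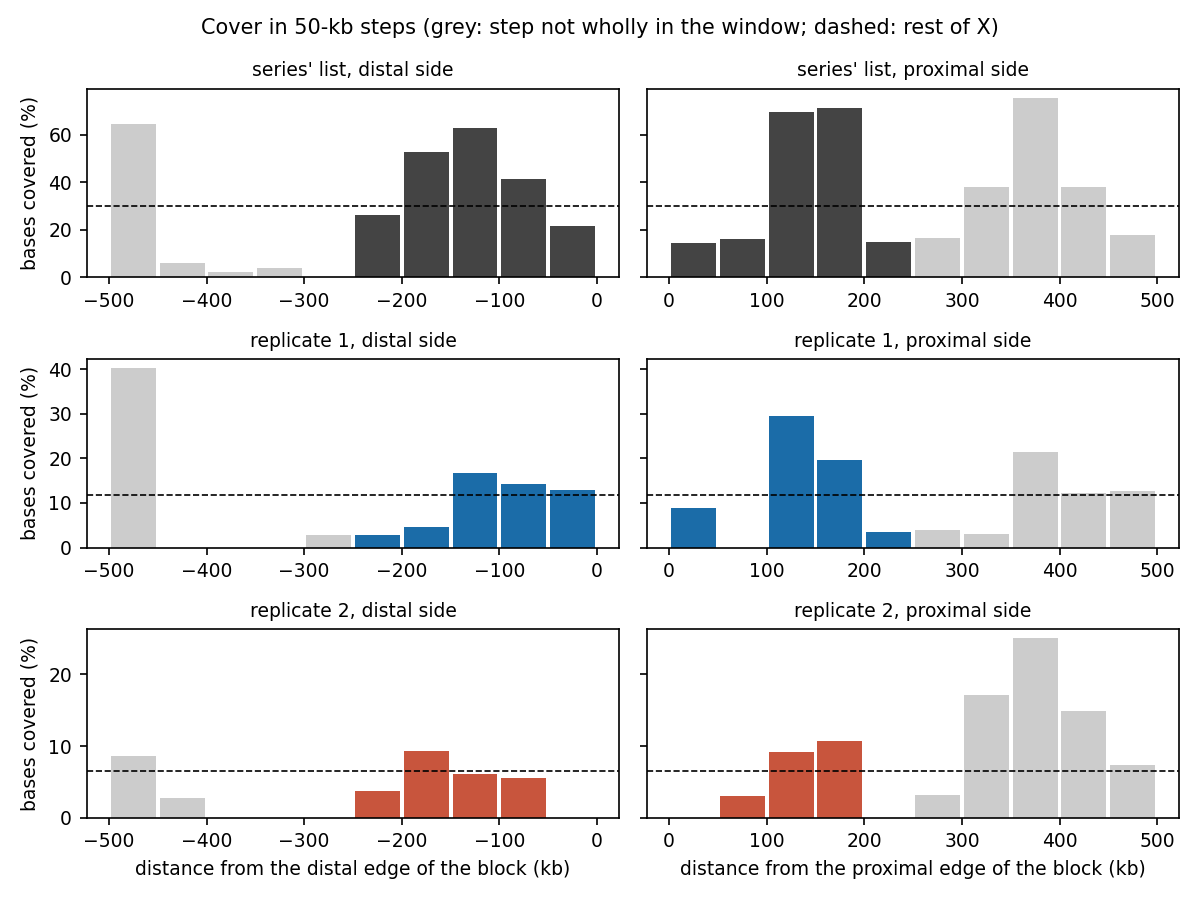
Percent of bases covered in 50-kb steps against distance in kb from the distal edge (left) and the proximal edge (right) of the block, for each list, with the cover of the rest of X dashed and steps that are not wholly in the window in grey. The vertical scale differs between lists. Cover in the series' list is 21.8% and 14.6% next to the block and peaks at 63.0% and 71.4% within the flanks.

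Median scores in the flanks were close to those elsewhere on X. The median score in the flanks was 0.74 in replicate 1 (27 regions) and 0.75 in replicate 2 (14 regions), against 0.78 and 0.77 on the rest of X. The difference was -0.039 and -0.016, a mean of -0.027 ± 0.016 (SD, n = 2). In the series' list it was 0.0064, from medians of 0.54 in the flanks and 0.54 on the rest of X. Single flank regions spread more widely than that. Their scores ran from 0.59 to 1.15 in replicate 1, and those of replicate 2 lay between 0.64 and 0.95. The share of regions above the median of their whole list differed in direction between replicates. In replicate 1 it was 66.7% in the flanks and 82.0% on the rest of X, and in replicate 2 it was 100% and 92.1%.

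The sides of the block were not ordered alike by score in the replicates. In replicate 1 the median was 0.79 in the distal flank and 0.72 in the proximal flank. In replicate 2 it was 0.75 in the distal flank and 0.81 in the proximal flank. The median length of a flank region was 1698 bp in replicate 1 and 1463 bp in replicate 2, against 1860 bp and 1688 bp on the rest of X. The mean difference was -193.5 bp ± 44.5 (n = 2). By side, the mean difference was -241.8 bp ± 56.2 in the distal flank and -26.8 bp ± 186 in the proximal flank. The contrast came mostly from replicate 2, with 8 distal and 6 proximal regions. Its differences were -281.5 bp in the distal flank and 105 bp in the proximal flank (1793 bp against 1688 bp on the rest of X). In replicate 1 the sides were closer, at -202 bp and -158.5 bp. The series' list had the opposite order, with -89.5 bp in the distal flank and -237.5 bp in the proximal flank.

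**Figure D4:**
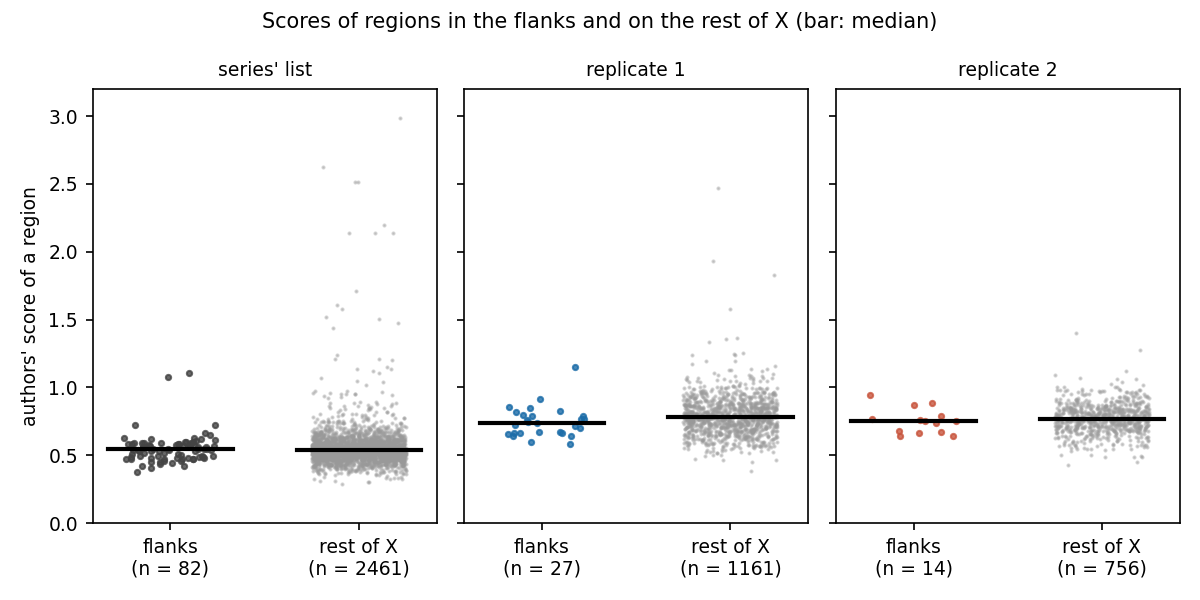
The authors' score of each region in the flanks (coloured) and on the rest of X (grey) in each list, with the median as a bar. Medians are 0.54 and 0.54 in the series' list, 0.74 and 0.78 in replicate 1 and 0.75 and 0.77 in replicate 2. Of the scores on X, the highest in each list lie outside the flanks.

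The replicates called mostly different sequence in the flanks. In the distal flank they shared 0 of the 38151 bases that either covered, and none of the 13 and 8 regions overlapped. In the proximal flank they shared 3140 of 38927 bases, in 4 pairs of regions. Over both flanks, 14.8% of the regions of replicate 1 (4 of 27) touched replicate 2, against 33.6% on the rest of X. For replicate 2 the share that touched replicate 1 was 28.6% (4 of 14) in the flanks and 52.6% on the rest of X. Over the window the Jaccard index, bases in both replicates divided by bases in either, was 0.0407, against 0.157 for the rest of X. Among 28 consecutive 800-kb tiles of X, the tile of the window had the 2nd lowest index. The median was 0.157 and the range 0.0012 to 0.265.

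The pair with the longest overlap was 4678053 to 4680163 in replicate 1 (score 0.83) and 4678622 to 4679992 in replicate 2 (score 0.75), which shared 1371 bp. The next shared 1138 bp, between 4668343 to 4669834 in replicate 1 (score 0.74) and 4666978 to 4669480 in replicate 2 (score 0.87). The other 2 pairs shared 404 bp and 227 bp. Of the 82 regions of the series' list in the window, 4 touched both replicates, 28 touched 1 and 50 touched neither. The share that touched both was 4.88% in the window and 14.5% on the rest of X, and the share that touched neither was 61.0% and 48.3%.

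The longest regions of the window were on the proximal side and the distal side alike. In the series' list the longest, 13546 bp from 4657998 to 4671543 with a score of 0.59, was covered to 73.4% by replicate 1 and 18.5% by replicate 2. The next, 12234 bp from 4137965 to 4150198 with a score of 0.55, was covered to 42.0% by replicate 1 and 0% by replicate 2. The region of 7836 bp from 4637928 to 4645763 (score 0.57) held no base called in a replicate. The region of 6158 bp from 4701635 to 4707792 (score 0.53) was covered to 22.2% by replicate 2 and 0% by replicate 1. The fifth, 5508 bp from 4163016 to 4168523 (score 0.53), was covered to 53.0% by replicate 1 and 0% by replicate 2.

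The 2 top scores of the window in the series' list belonged to short regions. The highest, 1.11, belonged to a region of 1006 bp at 4625726 to 4626731, with terms of 22 and 9. The second, 1.08, belonged to a region of 1052 bp at 4051670 to 4052721, with terms of 12 and 5. The read numbers behind these may be whole multiples of the terms, so the counting errors are at most 0.57 and 0.77. Neither overlapped a region of a replicate. Of the other 3 among the 5 highest, regions of 3085 bp at 4714916 to 4718000 (score 0.73, terms of 455 and 242) and 3964 bp at 4632306 to 4636269 (score 0.67, terms of 631 and 350) were covered to 65.8% and 76.5% by replicate 1 and to 0% by replicate 2. The region of 1060 bp at 4786477 to 4787536 (score 0.72, terms of 118 and 63) was covered by neither.

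With block and flanks together, cover of the window was 7.05% in replicate 1, 2.98% in replicate 2 (mean 5.01% ± 2.88, SD, n = 2) and 25.3% in the series' list. Among the 28 tiles of X it had the 2nd lowest cover in replicate 1, where tiles ran from 3.53% to 26.4%. It had the 3rd lowest in replicate 2, where they ran from 1.95% to 15.5%, and the 9th lowest in the series' list, where they ran from 14.0% to 51.4%. These ranks contain the block that chose the window and are a description.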

How the data were processed

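Per the submitters' processing notes, Bowtie 0.12.7 was used. FlyBase release 5 is the build per the file headers, and the entries are called regions of significant enrichment in the files. Which caller and threshold were used, and how replicates were combined, is not given in the sources used here. The authors deposited 1 score per region, on a scale they do not state, and it was used within 1 list only. Library totals are not in the lists, so the depth of each library is unknown. The counting error of a score covers counting only, and is an upper limit because its terms are in lowest terms.

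Regions on X were taken from the 3 lists with Python 3.11.15, numpy 2.4.6 and pandas 2.3.3, and covered bases were counted once each. A region belonged to the part that held its midpoint. Overlap meant at least 1 bp. A score was accepted as a log2 ratio within a relative difference of 1e-12 with lower terms up to 20000, and the constant of a list was the one that gave the smallest terms. The interval functions were tested on simulated data. The inputs have no values of their own here. Named regions were those next to the block, the 5 longest and the 5 highest-scoring of the window in the series' list, and the 5 longest gaps of X per list. The window, block and lists were chosen with earlier results of these data known. T-box and Decapentaplegic pathway genes listed for a look-up were not analysed here, for want of positions on release 5.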

Additional observations from a re-analysis of the deposited data

How the results depend on the processing

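No paired analysis was possible because only the ChIP replicates have lists, and the result comes from no test. With 2 replicates, leaving 1 out always moves a mean by less than the SD, and the cover of the block is 0% in every setting, so these say nothing about stability. Of the other 22 alternatives, 15 moved a result by less than the spread between replicates or, for the Jaccard index, by less than 1.5 times. Some of the 15 carry no weight. Joining regions closer than 1 kb could not change the length of the block. The share of regions with an overlap of at least 50% of both regions, 4.88%, is a different measure from the Jaccard index of bases. The length of the block went to 414893 bp with replicate 2 alone. The series' list gave 37.4% for the flanks and 25.3% for the window, and turned the difference in cover to 7.48 percentage points and the difference in median score to 0.0064. The cause was not tested. With flanks of 100 kb the differences grew to -3.66 percentage points and -0.072. In replicate 2 the gap itself reached 75650 bp and 79922 bp past the block, so most of these flanks was empty in it. They held 2 regions of replicate 2 on the distal side and 1 on the proximal side, so its median score there rests on few regions. Leaving out 1 replicate gave 4.41% to 10.4% for the flanks, -2.18 to -1.47 percentage points for the difference in cover, -0.039 to -0.016 for the difference in score, 2.98% to 7.05% for the window and 0% for the block. With scores above the median of each list, the block stayed the longest gap of X in the series' list, at 259321 bp. That cut removed little, since 72 of the 82 window regions and 83.9% of all regions on X passed it in that list. Under the same cut the gap ranked 2nd on X in replicate 1, at 322278 bp, and 2nd in replicate 2, at 414893 bp. Where reads could be aligned is not in the lists, so the block is sequence without a call.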
